A study of Homo sapiens with 79 samples.

Results

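The genes described here are the numbered ZNF genes of human chromosome 19, 248 of the 48453 genes listed in the deposited expression tables, chosen because their symbol is ZNF followed by a number and their locus lies on chromosome 19. The tables hold 489 numbered ZNF genes in all, and the other 241 lie on other chromosomes. The RNA came from K562 cells, an established human erythroleukemia line, cross-linked lightly with formaldehyde, sheared by sonication and immunoprecipitated with an antibody to 1 protein at a time (formaldehyde RNA immunoprecipitation, fRIP). All groups came from this 1 line, and the labels name no treatment other than the cross-linking. The panel held 24 proteins in 70 fRIP libraries, 3 per protein and 2 each for EZH2 and STAG2, next to 9 input libraries of lysate RNA in 3 sets of 3. RNA binding proteins (RBPs) in the panel were ADAR, HNRNPH1, HNRNPU, HUR, IMP1 and PABP. The chromatin-associated proteins (CAPs) were CBX3, its phosphorylated form (phospho-CBX3), the Polycomb proteins EZH2 and SUZ12, the chromatin remodellers CHD1, CHD4 and CHD7, the acetyltransferases CBP and PCAF, the deacetylase HDAC1, the demethylases LSD1 and PHF8, the DNA methyltransferase DNMT1, the MLL complex subunits WDR5 and RBBP5, the nucleoporin NUP98, CTCF and the cohesin subunit STAG2. A fRIP measures RNA recovered with an antibody from sheared lysate, so a complex that holds the protein and direct contact with the protein cannot be told apart.

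Most ZNF genes of chromosome 19 encode proteins with a row of C2H2 zinc fingers behind a KRAB domain. The fingers read DNA, often of transposable elements, and the KRAB domain recruits TRIM28, which brings the H3K9 methyltransferase SETDB1 and HP1 proteins such as CBX3 (HP1 gamma). The ZNF genes arose by repeated tandem duplication and stand in clusters, and their own gene bodies are known to carry H3K9me3 and HP1 in several cell types. CBX3 and phospho-CBX3 were therefore examined first.

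Of the 248 genes, 240 were annotated as protein coding and 5 as pseudogenes, and 3 had no match in the annotation used. Their predicted proteins held a median of 12 C2H2 fingers, from 1 to 39, over the 232 genes whose coding sequence could be read in full. A pattern for the KRAB domain was found in 194 of these 232 and was not found in 38, some of which may carry a diverged domain. The fingers are joined by a conserved linker, and the bases that code for it were the most repeated feature of the coding sequences. The 5 most widely shared versions of this 21-base stretch are shown because they mark how closely the members resemble each other, with capitals at bases that differ from the first:
linker version A: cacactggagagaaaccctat
linker version B: caTactggagagaaaccTtaC
linker version C: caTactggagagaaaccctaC
linker version D: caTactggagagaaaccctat
linker version E: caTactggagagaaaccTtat
Version A occurred in the coding sequence of 39 of 237 genes, B in 39, C in 34, D in 25 and E in 24, and 197 of the 237 had at least 1 of 251 versions. The reads were 31 bases long, and a median of 12.8% of the 31-base words in a member's most expressed transcript also occurred in another gene. Such words made up more than 50% of the transcript in 22 members, where the estimate of one gene's level depends on how reads were shared out.

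The members were expressed at low to moderate levels in the input. Their mean input levels had a median of 3.50 FPKM (fragments normalised to transcript length and library size) and a range from 0.00342 to 78.2. The highest were ZNF146 at 78.2 FPKM ± 14.2 (SD, n = 9), ZNF83 at 47.2 ± 12.1 and ZNF460 at 37.5 ± 5.01. A gene had to reach 1 FPKM in at least 2 of the 79 libraries to be tested, and 224 of the 248 members did. The 24 others had mean input levels of at most 0.348 FPKM. One of these was ZNF568, listed at 0.105 FPKM in the lowest, 0.263 in the median and 0.623 in the highest input library. Depth estimated from the smallest steps between values ran from 1.93 to 58.3 M fragments (megafragments) per library, and the 3 ADAR libraries were the lowest, between 1.93 and 2.30 M. The erythroid markers GATA1, TAL1, KLF1, HBG1, HBG2 and HBE1 had median input levels from 40.8 to 944 FPKM. COL1A1, ALB, KRT5, MS4A1 and CD3E, markers of other cell types, had medians from 0 to 0.357 FPKM. No 2 libraries were identical.

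CBX3 and phospho-CBX3 each enriched a small group of the chromosome 19 ZNF mRNAs and left most of them near their input level. A gene was called when its limma p-value, adjusted by Benjamini-Hochberg over 25442 genes, was under 0.05 and its change was over 2-fold on the log2(FPKM + 1) scale. In the CBX3 fRIP 13 of the 224 tested members were enriched (5.80%), where 7.45% of all genes tested were enriched, and 1 was depleted against 3.65% of all genes. In the phospho-CBX3 fRIP 14 members were enriched (6.25%) against 2.58% of all genes, and 0 were depleted against 2.91%. The median log2 fold change of the members was 0.21 in CBX3 and 0.19 in phospho-CBX3, next to 0.05 and -0.04 over all genes. ZNF genes of other chromosomes had medians of 0.34 and 0.27, with 8.10% and 3.33% enriched, and the remaining mRNA genes of chromosome 19 had medians of 0.28 and 0.06, with 15.5% and 2.28% enriched. For CBX3 the share of members enriched thus lay near the background. At an unadjusted p under 0.05, 90 of 224 members differed from input in CBX3, where 11310 of 25442 genes did, and 94 in phospho-CBX3, where 8990 genes did, in either direction. With each library centred on its own median, 6 members were enriched in CBX3 (2.68%, all genes 5.40%) and 1 was depleted (0.446%, all genes 5.40%). In phospho-CBX3 15 were then enriched (6.70%, all genes 3.20%) and 0 depleted (all genes 2.33%). Both comparisons use the same 9 input libraries. Against only the input set that the study's own table paired with these fRIPs, 5 members were enriched in CBX3 (2.23%, all genes 5.35%) and 10 in phospho-CBX3 (4.46%, all genes 1.23%).

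**Figure D1:**
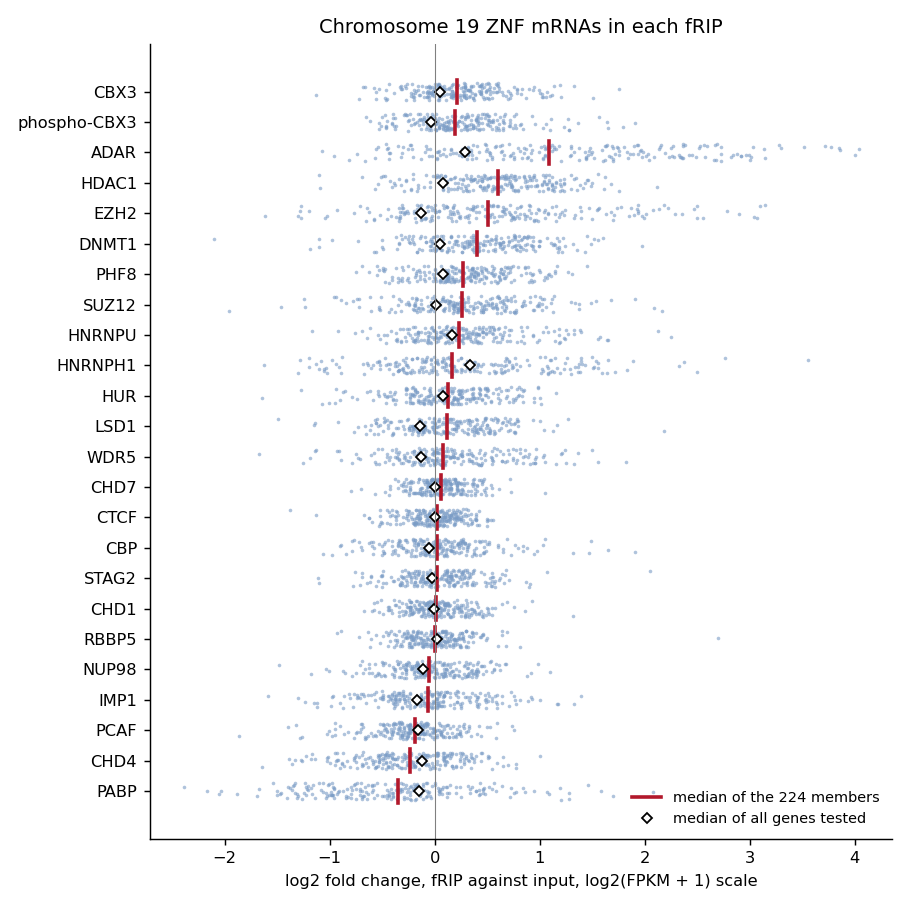
Log2 fold change of each of the 224 tested chromosome 19 ZNF genes (blue points) in each fRIP against input, with the median of the members (red bar) and of all genes tested (open diamond). CBX3 and phospho-CBX3 stand at the top and the other 22 proteins follow by the members' median, from 1.09 in ADAR to -0.34 in PABP.

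ZNF841, which encodes a KRAB protein with 20 fingers and lies on the minus strand at chr19:52567718-52599018 (hg19), had the largest change in CBX3 among members with every fRIP library above every input. Its level was 46.0, 59.0 and 28.1 FPKM in the CBX3 libraries and 67.6, 66.6 and 39.8 in the phospho-CBX3 libraries, against 8.11 (lowest), 13.6 (median) and 21.9 (highest) in input. Neither group overlapped the input, and the third library of each was lower than the other two. The log2 fold change was 1.51 ± 0.27 (SE) in CBX3 (adjusted p = 4.51e-06) and 1.91 ± 0.27 in phospho-CBX3 (adjusted p = 6.96e-08). The two-sided exact permutation p for either was 0.00909, the smallest that 3 libraries against 9 can give. Choosing a gene without overlap fixed that p.

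ZNF558, in the block of short-arm genes from ZNF557 to ZNF846, measured 50.4, 65.0 and 39.3 FPKM in CBX3 and 52.4, 46.9 and 43.0 in phospho-CBX3, against 16.3 to 23.3 (median 19.0) in input. All 6 fRIP libraries were above all inputs, by a log2 fold change of 1.33 in CBX3 (adjusted p = 3.58e-10) and 1.24 in phospho-CBX3 (adjusted p = 7.99e-09). ZNF266, further along in the same block and with 12 fingers, had the smallest spread of the group. It measured 56.0, 62.8 and 54.7 FPKM in CBX3, 67.1, 59.9 and 65.1 in phospho-CBX3 and 20.9 to 30.1 (median 26.2) in input. The changes were 1.12 ± 0.09 (adjusted p = 3.23e-16) and 1.27 ± 0.09 (adjusted p = 2.14e-17). ZNF266 was also the member enriched in the largest number of fRIPs, 8 of 24.

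ZNF649, in the same cluster as ZNF841, rose from 5.92 to 9.56 FPKM in input (median 7.33) to 19.5, 19.0 and 16.9 in CBX3 and 20.9, 21.4 and 16.9 in phospho-CBX3. Its log2 fold changes were 1.19 (adjusted p = 1.01e-09) and 1.28 (adjusted p = 4.12e-10). ZNF432, whose annotated locus overlaps that of ZNF841 on the same strand, was at 15.4, 21 and 16.04 FPKM in CBX3 and 27.8, 29.0 and 23.4 in phospho-CBX3 against 5.71 to 10.7 (median 7.17) in input. The 3 groups did not overlap, with changes of 1.06 (adjusted p = 1.06e-06) in CBX3 and 1.65 (adjusted p = 2.95e-11) in phospho-CBX3. ZNF550, at the far end of the long arm, went from 3.79 to 5.77 FPKM (median 5.17) in input to 11.4, 12.7 and 10.7 in CBX3 and 15.6, 12.4 and 15.5 in phospho-CBX3. Every fRIP library of these 3 genes was above every input. Reads from sequence that ZNF432 shares with ZNF841, or ZNF649 with the overlapping ZNF577, could be counted for either gene.

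ZNF600 was at 13.6, 17.8 and 11.5 FPKM in CBX3 and 9.91, 10.6 and 9.84 in phospho-CBX3 against 4.23 to 7.38 (median 5.69) in input. It was above the inputs in both and past 2-fold in CBX3 alone, with log2 fold changes of 1.21 and 0.76, and the difference between the 2 fRIPs did not pass the test (log2 -0.44 ± 0.20, adjusted p = 0.146). ZNF224, whose protein was described as a repressor of the aldolase A gene, changed by 1.13 (adjusted p = 0.000323) and 1.64 (adjusted p = 1.31e-06) from an input of 0.672 to 3.68 FPKM. Its transcript length, weighted by isoform abundance, was 566 bases, 42.4% of its exonic bases lie opposite another gene, and the counting is not stated to have used strand. ZNF888 was enriched in phospho-CBX3 with 13.3, 11.1 and 13.0 FPKM (log2 1.79 ± 0.65, adjusted p = 0.0332), but its inputs ran from 1.34 to 9.05 and its CBX3 libraries from 1.89 to 15.3, and leaving out single libraries took its adjusted p to 0.11.

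**Figure D2:**
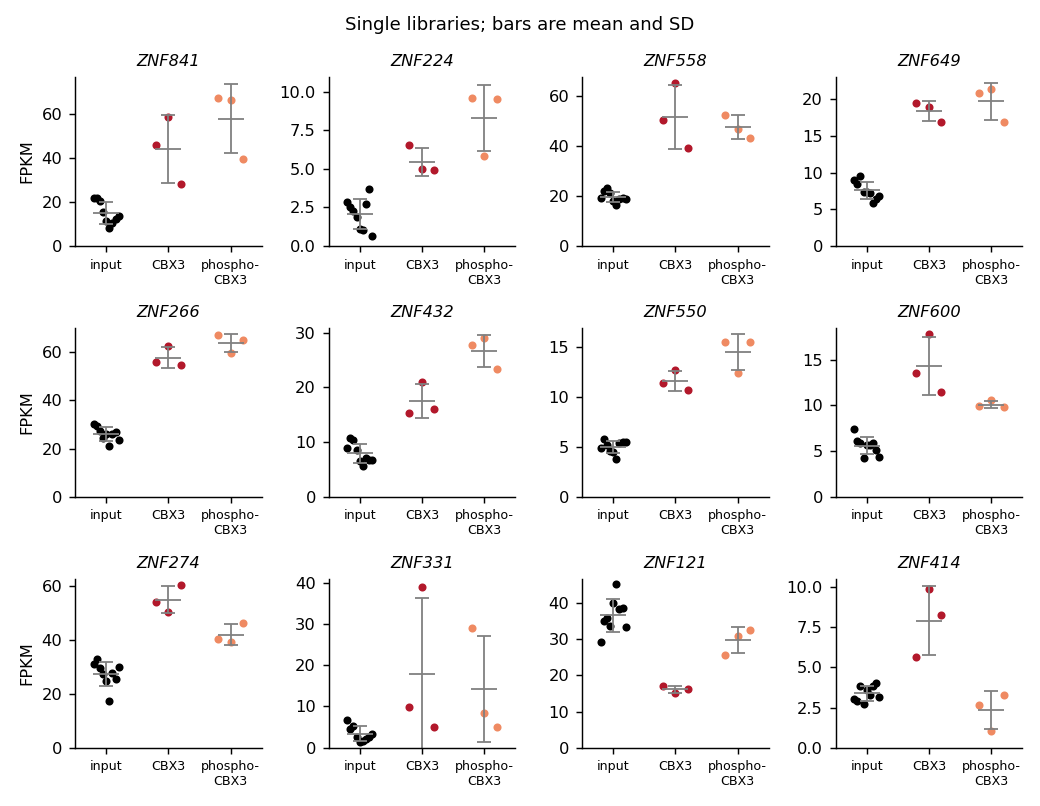
FPKM of 12 members in each of the 9 input, 3 CBX3 and 3 phospho-CBX3 libraries (points), with mean and SD as grey bars and an axis from 0 in each panel. In the first 9 panels every fRIP library lies above every input, ZNF331 overlaps the input, ZNF121 is low in CBX3 and ZNF414 is high in CBX3 alone.

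ZNF331 had the largest fitted change of any member in CBX3, 1.75 ± 0.45 (adjusted p = 0.00131), and 1.56 in phospho-CBX3 (adjusted p = 0.00663). Its libraries disagreed, at 9.90, 38.9 and 4.98 FPKM in CBX3 and 29.0, 8.52 and 5.10 in phospho-CBX3, so both overlapped the input range of 1.39 to 6.76. Without the second CBX3 library its adjusted p was 0.14, and without the first phospho-CBX3 library 0.25. ZNF274, which binds the 3′ ends of other ZNF genes and recruits SETDB1 there, was at 54.3, 50.4 and 60.6 FPKM in CBX3 and 40.5, 39.2 and 46.5 in phospho-CBX3, all above the inputs of 17.2 to 32.8. Its log2 fold change was 1.00 in CBX3 (adjusted p = 1.62e-07), just short of the 2-fold limit, and 0.62 in phospho-CBX3 (adjusted p = 0.00112). ZNF83, among the most abundant members, changed by 0.87 and 1.11, with CBX3 replicate 3 (60.8 FPKM) inside the input range of 36.6 to 69.5.

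Of the 11 genes chosen by name, 5 lie in the large cluster beside the centromere. ZNF91 and ZNF93, whose proteins silence SVA and LINE-1 elements, were at 2.41 to 4.41 and 7.19 to 11.8 FPKM in CBX3, within their input ranges of 2.98 to 5.90 and 6.78 to 20.6 except for the lowest ZNF91 library. ZNF43, ZNF85 and ZNF675 also overlapped the input in both fRIPs. None of these 5 passed the test in either fRIP, with log2 fold changes from -0.28 to 0.03 in CBX3 and from -0.48 to 0.31 in phospho-CBX3 and adjusted p from 0.145 to 0.985. Members wholly below input numbered 5 in CBX3 and 5 in phospho-CBX3 over the whole chromosome (2.23% each), where 9.65% and 7.58% of all genes were. Some of them lie in the same cluster. ZNF486 was at 0.584, 0.498 and 0.372 FPKM in phospho-CBX3 against 0.650 to 1.55, ZNF506 at 1.40, 1.46 and 1.26 against 1.76 to 3.24, and ZNF254 at 6.18, 6.97 and 6.57 against 8.04 to 10.6. ZNF681 was at 5.88, 4.66 and 5.13 FPKM in CBX3 against 6.01 to 9.77. The changes of these 4 were less than 2-fold (log2 -0.45 to -0.53).

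The member depleted past 2-fold in CBX3 was ZNF121, a gene with 9 fingers in which the KRAB pattern was not found. It measured 17.0, 15.2 and 16.2 FPKM in CBX3 and 25.7, 30.9 and 32.6 in phospho-CBX3 against 29.4 to 45.2 (median 36.0) in input. CBX3 was below every input (log2 fold change -1.13, adjusted p = 2.98e-09), while phospho-CBX3 overlapped the input (-0.29, adjusted p = 0.137). ZNF146, the most abundant member, was below every input in CBX3 at 54.2, 46.0 and 56.7 FPKM (-0.56, adjusted p = 0.00452) and was not in phospho-CBX3. The paired input set alone gave ZNF146 an adjusted p of 0.333. ZNF524 fell by 0.56 in CBX3 (adjusted p = 0.00215), and ZNF260 fell by 0.62 in phospho-CBX3 (adjusted p = 0.0245).

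Phospho-CBX3 was then compared with CBX3 directly. Of 224 members 0 were more than 2-fold higher in phospho-CBX3, where 0.33% of all genes were, and 1 was lower, where 2.4% of all genes were. At an unadjusted p under 0.05, 36 of 224 members differed in either direction, where 5964 of 25442 genes did, and the median difference was 0.01 on the log2 scale. The lower one was ZNF414, a short mRNA with 3 fingers, at 5.62, 9.86 and 8.26 FPKM in CBX3 and 2.67, 1.01 and 3.31 in phospho-CBX3. CBX3 was above all inputs (2.72 to 4.06 FPKM) and phospho-CBX3 overlapped them, and the log2 difference was -1.46 ± 0.28 (adjusted p = 0.000195). ZNF761 went the other way, at 11.4, 10.6 and 10.3 FPKM in CBX3 and 18.5, 23.2 and 21.8 in phospho-CBX3 against 8.18 to 10.4 in input, a difference of 0.91 ± 0.13 (adjusted p = 8.15e-07). ZNF121 differed by 0.83 (adjusted p = 0.000644) and ZNF726 by -0.85 (adjusted p = 0.0315). With 3 libraries against 3 the two-sided exact permutation p cannot go below 0.1, and it was 0.1 for each of these 4 genes.

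ADAR, the adenosine deaminase that edits double-stranded RNA, enriched more of the chromosome 19 ZNF mRNAs than any other protein of the panel in the values as deposited, though fewer than EZH2 once each library was centred. Of the 224 tested members 122 (54.5%) were enriched, against 26.6% of all genes, 29.5% of ZNF genes of other chromosomes and 25.5% of other chromosome 19 mRNA genes. One member was depleted, against 4.31% of all genes. The members' median log2 fold change was 1.09, next to 0.29 over all genes, 0.40 for the other ZNF genes and 0.26 for the other chromosome 19 mRNAs. The members' median was 0.84, 0.85 and 0.90 above that of all genes in libraries 2, 1 and 3. When each library was centred on its own median, the ADAR medians of all genes and of the members both fell by 0.98, to -0.69 and 0.11. Then 58 members (25.9%) were enriched against 11.6% of all genes, while 30 (13.4%) were depleted against 35.2%.

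**Figure D3:**
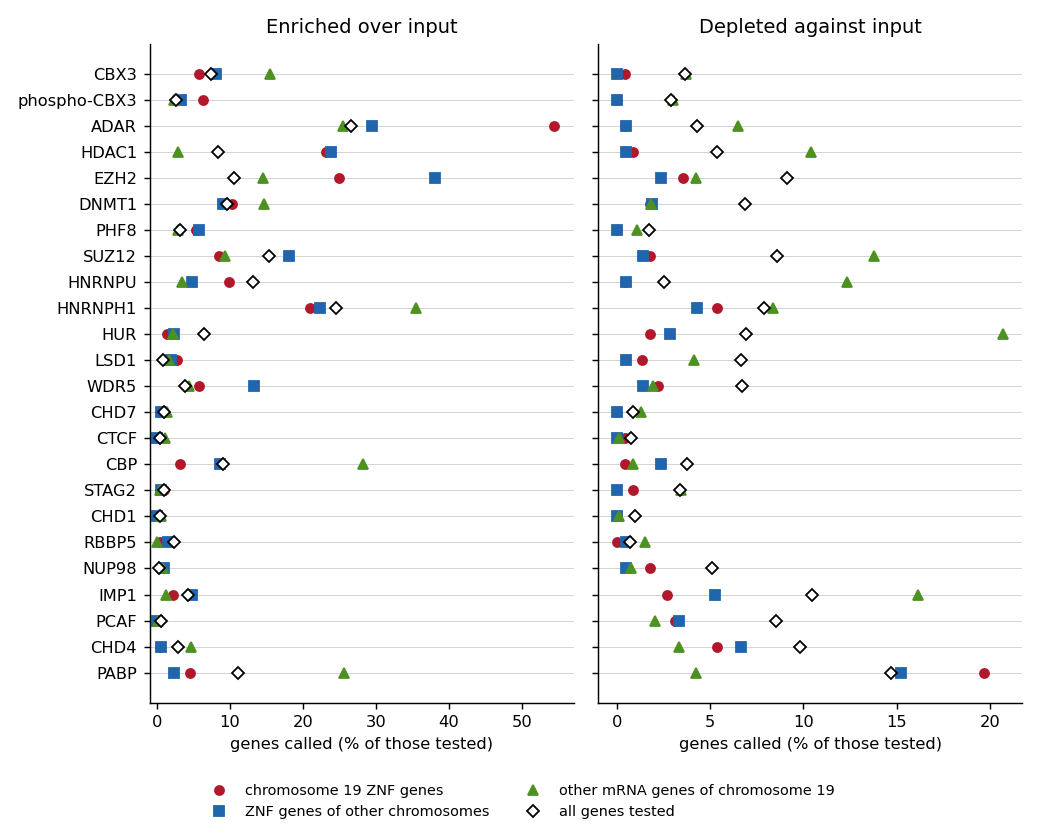
Share of genes enriched (left) and depleted (right) in each fRIP against input, in percent of those tested, for the chromosome 19 ZNF genes (red circles), ZNF genes of other chromosomes (blue squares), other mRNA genes of chromosome 19 (green triangles) and all genes tested (open diamonds). In ADAR 54.5% of the members stand apart from 26.6% of all genes, and in PABP 19.6% of the members were depleted against 14.7% of all genes.

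ZNF417, a KRAB gene with 12 fingers on the minus strand at chr19:58411664-58427978, had the largest change. It was at 77.7, 105 and 77.3 FPKM in ADAR against 2.77 (lowest), 4.24 (median) and 6.52 (highest) in input, a 16.4-fold difference on the log2(FPKM + 1) scale (log2 4.04 ± 0.21, adjusted p = 4.69e-25, exact permutation p = 0.00909). Here too the exact p was fixed by choosing a gene without overlap. After centring the log2 fold change of ZNF417 was 3.06. ZNF417 shares 52.9% of its 31-base words with other genes, so the level cannot be given to this gene alone. ZNF154, with 8.94% of words shared, was at 48.8, 34.6 and 51.7 FPKM in ADAR against 1.08 to 3.19 in input (log2 4.00, adjusted p = 3.58e-30). The next in order, named after their values were seen, were ZNF440 at 218, 288 and 239 FPKM against 13.6 to 20.2, ZNF506 at 42.9, 44.4 and 59.3 against 1.76 to 3.24, ZNF552 at 151, 127 and 141 against 7.68 to 11.9, and ZNF43 at 190, 241 and 302 against 10.5 to 23.7. In each of these 6 every ADAR library was far above every input. ZNF43 and ZNF506 are in the centromeric cluster, where CBX3 and phospho-CBX3 did not enrich them.

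PABP, which binds the poly(A) tail, had the lowest member median in the values as deposited. Depleted members numbered 44 of 224 (19.6%) against 14.7% of all genes, and 10 (4.46%) were enriched against 11.1%. The members' median was -0.34, next to -0.15 over all genes and 0.29 for other chromosome 19 mRNAs, of which 25.7% were enriched. With each library centred on its median, which moved the median of all genes by 0.49, 10 members were depleted (4.46%, all genes 6.93%) and 22 enriched (9.82%, all genes 20.9%). The most depleted were ZNF460, ZNF493 and ZNF841, at -2.39, -2.17 and -2.06. ZNF428, with a single finger, was enriched most, at 99.2, 115 and 120 FPKM against 15.4 to 38.2 in input (log2 2.08 ± 0.18, adjusted p = 5.50e-15). Across the members the PABP change fell with transcript length (Spearman rho = -0.41 over 220 genes, -0.43 over other mRNA genes).

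EZH2, the H3K27 methyltransferase, enriched 56 members (25.0%) against 10.5% of all genes, and 38.1% of ZNF genes of other chromosomes. It depleted 8 (3.57%) against 9.13%. With centred libraries it enriched 72 (32.1%, all genes 13.2%) and depleted 6 (2.68%, all genes 6.30%). ZNF446, the last member toward the end of the long arm (chr19:58985384-58992597, plus strand), was at 91.7 and 98.6 FPKM in the 2 EZH2 libraries against 7.24 to 15.6 in input. The groups were far apart, with a log2 fold change of 3.15 ± 0.20 (adjusted p = 2.65e-20). The exact permutation p was 0.0364, the smallest that 2 libraries against 9 allow, and choosing a gene without overlap fixed it. ZNF132, ZNF865, ZNF324 and ZNF497, named after their values were seen, followed at 3.10, 3.07, 3.04 and 2.90. All 5 lie in the terminal block of genes described next. ZNF446 overlaps ZNF324 by its start on the same strand, so the reads of the overlap could be counted for either gene.

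The EZH2 values differed along the chromosome. The members were divided into 16 blocks wherever neighbouring genes started over 1 Mb apart, 11 of them with at least 2 genes. In the terminal block of 58 members, from ZNF628 to ZNF446, EZH2 enriched 23 of 51 tested and depleted 0, with a median of 0.91, where 10.5% of all genes were enriched and 9.13% depleted with a median of -0.13. In the centromeric block of 36, from ZNF101 (starting at 19779605) to ZNF254 (starting at 24216207), it enriched 0 of 31 and depleted 7, with a median of -0.31, against the same shares of all genes. These 7 were ZNF493 (-1.62), ZNF708 (-1.30), ZNF253 (-1.29), ZNF431 (-1.27), ZNF506 (-1.27), ZNF66 (-1.04) and ZNF93 (-1.03). Neighbours arose from each other and share sequence, so the genes of a block are not independent. The division into blocks was chosen after values were seen.

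The same centromeric block had 0 of 31 members enriched in CBX3 and 0 in phospho-CBX3, where 7.45% and 2.58% of all genes were, so few calls would stand at the background. Its medians were -0.05 and -0.13. ADAR enriched 24 of the 31 (median 1.60, all genes 26.6%). CBX3 and phospho-CBX3 enriched 5 and 7 of 38 members in the block from ZNF175 to ZNF331, and 4 and 2 of 16 in the block from ZNF557 to ZNF846. The median input level was 6.11 FPKM in the centromeric block and 5.55 in the block from ZNF175 to ZNF331. ADAR also enriched 22 of 28 in the block from ZNF653 to ZNF791 and 18 of 51 in the terminal block, next to the same 26.6% of all genes.

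**Figure D4:**
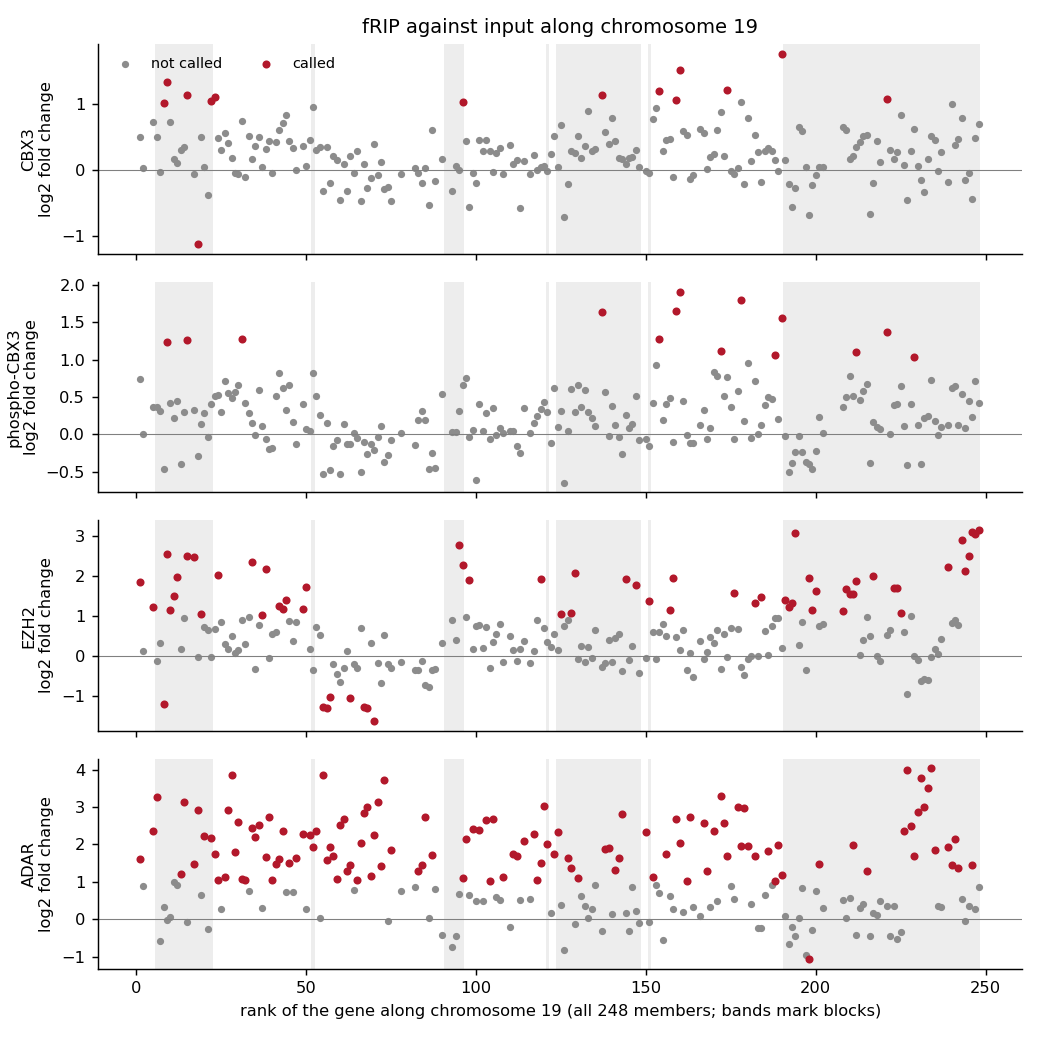
Log2 fold change against input of each tested member by its rank along chromosome 19 in the CBX3, phospho-CBX3, EZH2 and ADAR fRIPs, with called genes in red and grey bands marking every second block of neighbouring genes. In the unshaded stretch of the centromeric block, left of rank 100, EZH2 values lie lowest and CBX3 and phospho-CBX3 have no called gene, while ADAR has 24 called.

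HDAC1, the catalytic subunit of several corepressor complexes, enriched 52 members (23.2%) against 8.42% of all genes and 23.8% of ZNF genes of other chromosomes, and 2.93% of other chromosome 19 mRNAs. It depleted 2 (0.893%) against 5.35%. ZNF841 again had the largest change, at 88.4, 64.0 and 49.3 FPKM against 8.11 to 21.9 in input (log2 2.12, adjusted p = 1.19e-09). Against the paired input set 25 members were enriched (11.2%, all genes 5.08%), and after centring 18 (8.04%, all genes 4.21%). HDAC1 values rose with transcript length across members (rho = 0.37) and across other mRNA genes (rho = 0.34). Transcript length was a median of 2376 bases for tested members and 2096 over all mRNA genes.

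In most of the other fRIPs the share of members enriched was below or near that of all genes. In the values as deposited it was higher in PHF8, WDR5 and LSD1, and no test compared the fRIPs. Over mRNA genes alone the share was 2.81% in PHF8, 5.87% in WDR5, level with the members, and 1.17% in LSD1. The leading member named for each is the one with the largest change among those with every fRIP library above every input, which left out ZNF888 in LSD1 (2.18) and DNMT1 (1.98). PHF8, a histone demethylase, enriched 12 (5.36%, all genes 3.18%) and depleted 0 (all genes 1.71%), led by ZNF446 at 30.4, 36.5 and 20.9 FPKM (log2 1.45, adjusted p = 1.74e-09). WDR5 enriched 13 (5.80%, all genes 3.9%) and depleted 5 (2.23%, all genes 6.71%), led by ZNF865 at 11.2, 8.51 and 14.8 FPKM against 1.60 to 4.11 (1.82, adjusted p = 2.82e-14), next to 13.3% of ZNF genes of other chromosomes enriched. LSD1 enriched 6 (2.68%, all genes 0.814%) and depleted 3 (1.34%, all genes 6.66%), led by ZNF222, whose locus overlaps ZNF223 (1.27, adjusted p = 0.000252), and NUP98 depleted 4 (1.79%, all genes 5.11%) and enriched 1 (0.446%, all genes 0.263%), ZNF444 (1.10, adjusted p = 2.25e-05). DNMT1 enriched 23 (10.3%, all genes 9.56%, mRNA genes 13.1%) and depleted 4 (1.79%, all genes 6.88%). ZNF584 led in DNMT1 at 50.7, 42.6 and 49.7 FPKM against 12.5 to 24.7 (1.61, adjusted p = 3.07e-10). All the fRIP libraries of these 5 leading genes were above every input. Centring moved these counts, to 3 in PHF8 (1.34%, all genes 1.29%), 42 in WDR5 (18.8%, all genes 9.52%), 31 in LSD1 (13.8%, all genes 4.76%), 8 in NUP98 (3.57%, all genes 2.79%) and 33 in DNMT1 (14.7%, all genes 11.8%). Against the paired input set the members enriched numbered 4 in PHF8 (1.79%, all genes 4.01%) and 0 in NUP98 (all genes 0.106%), so neither stood above the background there. The paired set gave 15 in WDR5 (6.70%, all genes 3.43%), 4 in LSD1 (1.79%, all genes 1.14%) and 25 in DNMT1 (11.2%, all genes 10.5%).

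SUZ12, the partner of EZH2 in the Polycomb repressive complex, enriched 19 members (8.48%, all genes 15.3%) and depleted 4 (1.79%, all genes 8.6%), fewer enriched than EZH2 in these libraries, and the difference between the fRIPs was not tested. Its leading member was ZNF649, at 38.3, 34.2 and 39.1 FPKM against 5.92 to 9.56 in input (log2 2.17 ± 0.15, adjusted p = 9.69e-20). CBP depleted 1 (0.446%, all genes 3.78%) and enriched 7 (3.12%, all genes 9.08%) where 28.2% of other chromosome 19 mRNAs were enriched, and its leading member was ZNF784 at 13.6, 11.6 and 7.97 FPKM against 1.89 to 2.75 (1.91, adjusted p = 4.38e-17). CHD4 enriched 1 (0.446%, all genes 2.91%), ZNF428 (1.01), and depleted 12 (5.36%, all genes 9.79%). RBBP5 depleted 0 (all genes 0.731%) and enriched 1 (0.446%, all genes 2.28%), ZNF888, where the first library held 51.7 FPKM and the others 14.4 and 18.8. CHD7 enriched 1 (0.446%, all genes 0.99%) and STAG2 2 (0.893%, all genes 0.979%, with 2 depleted against 3.36%), with ZNF420 leading both (1.06 and 2.05). PCAF depleted 7 (3.12%, all genes 8.54%). CHD1, CTCF and PCAF enriched 0 members, against 0.424%, 0.424% and 0.515% of all genes, with 49, 39 and 76 of 224 members at an unadjusted p under 0.05 in either direction, where 5901, 6488 and 10541 of 25442 genes were. After centring, CHD4 enriched 6 members (2.68%, all genes 10.4%), PCAF 9 (4.02%, all genes 11.8%), CHD1 1 (0.446%, all genes 0.641%) and CTCF 0 (all genes 0.523%).

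Among the RBPs, HNRNPH1 enriched 47 members where 24.5% of all genes were enriched and depleted 12 (5.36%, all genes 7.9%). ZNF580, a short mRNA with 3 fingers whose locus overlaps ZNF581 on the same strand, led at 127, 98.4 and 137 FPKM against 7.91 to 12.01 in input, an 11.7-fold change (log2 3.55 ± 0.15, adjusted p = 1.41e-28). HNRNPU enriched 22 (9.82%, all genes 13.1%) and depleted 1 (0.446%, all genes 2.52%). Over mRNA genes alone it enriched 5.65%, and 3.47% of other chromosome 19 mRNAs, so the members' share was above that of mRNAs. ZNF154 led in HNRNPU at 14.4, 11.5 and 11.7 FPKM against 1.08 to 3.19 (2.25, adjusted p = 2.47e-17). HUR, which binds AU-rich elements, depleted 4 (1.79%, all genes 6.93%) and enriched 3 (1.34%, all genes 6.42%), led by ZNF121 at 88.9, 90.6 and 69.7 FPKM against 29.4 to 45.2 (1.16, adjusted p = 1.13e-09). ZNF121 was thus above all inputs in HUR and below them all in CBX3. IMP1 depleted 6 (2.68%, all genes 10.5%) and enriched 5 (2.23%, all genes 4.23%), led by ZNF812 (1.40), which shares 92.2% of its 31-base words with other genes. With centred libraries HNRNPH1 enriched 7 members (3.12%, all genes 8.59%) and depleted 52 (23.2%, all genes 22.1%). HNRNPU then enriched 4 (1.79%, all genes 4.66%) and depleted 12 (5.36%, all genes 13.7%). HUR enriched 0 (all genes 2.72%) and depleted 10 (4.46%, all genes 10.6%), and IMP1 enriched 23 (10.3%, all genes 12.5%) and depleted 1 (0.446%, all genes 3.62%), so the balance of enriched and depleted members in these RBPs rests on the scaling.

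Counted by gene, 31 of the 224 members were enriched in 0 fRIPs, 63 in 1, 125 in 2 to 5 and 5 in more than 5, so 86.2% were enriched in at least 1 protein against 75.9% of all genes. The 5 were ZNF266 with 8 proteins and ZNF331, ZNF432, ZNF841 and ZNF888 with 6 each. Since all comparisons share the inputs, a low input value raises several of them together.

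Members with and without the KRAB pattern, a split chosen after values were seen, had different medians in several fRIPs. In ADAR the median was 1.32 for 177 members with the pattern and 0.22 for 32 without, in HDAC1 0.67 and 0.04, in CBX3 0.27 and 0.05 and in phospho-CBX3 0.25 and 0.00. In EZH2 it was 0.35 and 0.88, in HNRNPH1 0.15 and 0.66 and in PABP -0.44 and 0.04, lower with the pattern in each. The members without the pattern had shorter transcripts (median 2046 against 2398 bases) and a higher input (5.73 against 4.21 FPKM). The number of fingers was weakly related to the changes, with rho between -0.24 and 0.24 over 209 members in the 24 fRIPs.

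The isoform estimates held a further difference between the 2 forms of CBX3. Over 129 members with a mean input of at least 1 FPKM and both coding and other annotated isoforms, the median share of FPKM in isoforms annotated as coding was 76.7% ± 1.91 (SD, n = 9) in input, 73.4% ± 2.21 (n = 3) in CBX3 and 81.3% ± 3.66 (n = 3) in phospho-CBX3. The CBX3 libraries ran from 71.6% to 75.9% and the phospho-CBX3 libraries from 77.4% to 84.7%, with no overlap, and the inputs from 73.7% to 79.5% overlapped both. The share was 64.7% in ADAR, 58.7% in HNRNPH1 and 90.9% in PABP. Assigning 31-base reads to isoforms is uncertain, and no test was made of the difference. The share was taken over these members only, so a shift of all genes in a fRIP cannot be told apart from one of the members.

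The mRNAs of the KRAB pathway were examined beside the ZNF mRNAs. Of 24 genes for TRIM28, SETDB1, HP1 proteins and their partners, CBX3 enriched 3, where 7.45% of all genes were enriched, and depleted 0. These were DNMT1 (log2 1.30), EHMT1 (1.247), an H3K9 methyltransferase, and CHAF1A (1.20), a histone chaperone. Phospho-CBX3 enriched 3, where 2.58% of all genes were enriched, namely ATRX (1.01), CHAF1A (1.05) and CHD3. CHD3 was at 1.73 (adjusted p = 0.0486) in phospho-CBX3 and at 1.62 (adjusted p = 0.0501) in CBX3, with a difference of 0.11 ± 0.82 (SE, adjusted p = 0.998). TRIM28 itself was at 0.29 (adjusted p = 0.180) and 0.43 (adjusted p = 0.0499), and SETDB1 at 0.79 (adjusted p = 5.88e-08) and 0.36 (adjusted p = 0.0128). SUZ12 enriched 10 of the 24, where 15.3% of all genes were enriched. Of 15 other zinc finger genes of chromosome 19 without a ZNF number, 8 were tested, of which CBX3 and phospho-CBX3 called 0 (all genes enriched 7.45% and 2.58%) and ADAR enriched 4 (all genes 26.6%), namely ZFP14, ZFP30, ZSCAN18 and ZSCAN5A.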

How the data were processed

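RNA of fRIP and input lysate was sequenced with paired 31-base reads in K562 cells. Per the labels and the study's methods, the authors aligned reads to hg19 with GENCODE v18 by TopHat and deposited FPKM per gene and isoform from Cuffdiff 2 and Cuffnorm. CASAVA 1.4 is named in the submitters' processing notes, and the sources used here give no other versions. Libraries of a protein came from different dates and lysates. Columns of the authors' own comparisons hold fold changes and p-values. From these, only loci and the mean input of each comparison were used, the latter to find which input set a fRIP was paired with. 1 of the 2 STAG2 libraries could not be tied to a numbered sample and was used as a group member.

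Groups came from the sample labels. Members and lists were chosen with earlier results of these data known. All 79 libraries entered 1 limma 3.58.1 fit (R 4.3.3) with intensity trend on log2(FPKM + 1), with 24 protein means and 1 mean over 9 inputs, for genes that reached 1 FPKM in 2 or more libraries. The Benjamini-Hochberg adjustment ran over 25442 genes within each comparison. Fold changes on this scale understate those of low genes. Single genes were also tested with two-sided exact permutation tests. Where a gene was chosen because its fRIP libraries did not overlap the input, the exact p was at its minimum by that choice and adds no support. Medians and shares of gene sets are descriptions without a test. On simulated data for 25442 genes, 97.9% of 97 log2 changes of 1.5 were recovered for CBX3 and 91.8% for STAG2. The changes were placed only in genes with a mean input log2(FPKM + 1) over 2, with independent noise. The lower quartile of tested members was 1.55 FPKM in input, below that level, so recovery there was not simulated. The named genes were 11 fixed symbols, the 6 largest and 4 smallest changes in CBX3 and phospho-CBX3 (adjusted p under 0.05, every fRIP library beyond every input), the largest in each other fRIP, 2 each way between the 2 CBX3 forms and the 3 most abundant. Depth was estimated from FPKM steps, where 88.1% to 91.4% of low values lay within 0.15 of a whole fragment. Same-numbered fRIP and paired input libraries deviated together (every correlation over 0.1) for CHD1, NUP98, PCAF and WDR5, from 0.129 to 0.599. RBBP5 fell just short of this cut, at 0.0877 to 0.445. DNMT1, SUZ12 and HNRNPU had mean correlations of 0.167, 0.138 and 0.127, and the means of the rest were lower. The main fit did not use this pairing. Transcripts were read from hg19 with GENCODE v44 lifted to it, which matched 245 of 248 members. The alternatives were other pseudocounts and filters, centring, input sets, a replicate block, own libraries only and leaving out each library. Some markers and 1 sequence feature are not reported here.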

Additional observations from a re-analysis of the deposited data

Results flagged for a closer look

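Among the 9 inputs, 4 of the named members had 1 library far from the rest. Chance alone gives about 1 group in 20, and all the named members were screened, so some of the 4 may be chance. ZNF274 was lowest at 17.2 FPKM in input set 2 replicate 3, with the next at 25.0. ZNF584 was highest at 24.7 FPKM in the same library (next 16.4), and ZNF865 was highest there too, at 4.11 (next 2.77). ZNF568 was highest at 0.623 FPKM in input set 3 replicate 3 (next 0.345). Without input set 2 replicate 3, ZNF274 had a log2 fold change of 0.92 in CBX3, ZNF584 of 1.69 in DNMT1 and ZNF865 of 1.90 in WDR5, all still past the threshold of the test. ZNF414 differed between phospho-CBX3 and CBX3 by the test of that difference, with a log2 value of -1.46, as described above.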

How the results depend on the processing

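With centred libraries the members' median turned from -0.34 to 0.15 in PABP, from 0.17 to -0.57 in HNRNPH1, from 0.23 to -0.36 in HNRNPU, from 0.12 to -0.13 in HUR, from -0.23 to 0.17 in CHD4, from -0.07 to 0.39 in IMP1, from -0.05 to 0.36 in NUP98, from -0.19 to 0.42 in PCAF and from 0.00 to -0.19 in RBBP5. Centring moved the median of all genes by the same amount in each fRIP, from -0.15 to 0.35 in PABP. The members' median relative to all genes therefore stayed as it was. With the paired input set the members' median turned in CTCF (0.02 to -0.14), NUP98 (-0.05 to 0.07) and STAG2 (0.02 to -0.06). Where the adjusted p alone made the call, 67 members were enriched and 12 depleted in CBX3, 65 and 8 in phospho-CBX3, 109 enriched in EZH2, 141 in HDAC1, 105 depleted in PABP, and 9 were higher and 4 lower in phospho-CBX3 against CBX3. The number of the other 22 fRIPs with a larger share of members than of all genes called was then 13 for enriched and 2 for depleted, and 2 for depleted with no filter. With centred libraries 58 were enriched in ADAR, 6 in CBX3 and 18 in HDAC1, 10 depleted in PABP and 2 higher in phospho-CBX3 against CBX3. Members enriched in CBX3 numbered 5 with input set 1 or the paired set and 21 with input set 2, and 3 were depleted with input set 3. HDAC1 enriched 25 with input set 1 or the paired set. In phospho-CBX3 1 was depleted with input set 1, set 3 or the paired set. With a pseudocount of 0.1, 2 were depleted in CBX3, 1 in phospho-CBX3 and 75 in PABP, and with 0.1 or 0.5, 2 were lower in phospho-CBX3 than in CBX3.

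The phospho-CBX3 median of members minus that of all genes, 0.23, was 0.38 and 0.28 with pseudocounts of 0.1 and 0.5, 0.15 with no filter, 0.29 with 1 FPKM required in 40 libraries, 0.15, 0.34 and 0.16 with input sets 1, 2 and 3 and 0.15 with the paired set. Leaving out 1 library gave 10 to 14 enriched and 1 depleted in CBX3 with a median difference of 0.12 to 0.22, 10 to 15 and 0 in phospho-CBX3 with 0.20 to 0.27, 117 to 123 in ADAR, 56 to 61 in EZH2, 46 to 57 in HDAC1 and 40 to 51 depleted in PABP. Between phospho-CBX3 and CBX3 it gave 0 higher and 1 to 2 lower, with 2 lower without phospho-CBX3 replicate 2, and the numbers of other fRIPs stayed at 8 and 1. With a replicate block, 13 members were enriched in CBX3, 14 in phospho-CBX3, 122 in ADAR, 57 in EZH2 and 52 in HDAC1, and 44 were depleted in PABP. For named genes, 118 of the alternative values were no longer past the threshold of the test and 43 newly were. The cause of these shifts was not tested.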
